A study of Mus musculus with 15 samples.

Results

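Parietal endoderm cells were examined in single-cell RNA-seq of 15 whole mouse embryos between E6.0 and E7.75. A cell was counted as parietal endoderm when it held at least 3 UMIs (unique molecular identifiers, each standing for 1 captured RNA molecule) of each of Lama1, Sparc and Col4a1, and at least 1 UMI of both Srgn and Plat. Members were thus chosen by measured expression. By this rule 266 of 93701 cells (0.284%) were parietal endoderm, 206 in control and 60 in Mesp1 knockout (KO) embryos. The levels of these 5 genes, and of any other gene in these cells against the remaining cells, are therefore given as a description without a test.

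Each library was 1 embryo on a C57BL/6J background, dissociated whole and captured with a 5′ droplet kit. The early controls were 5 embryos (3 at E6.0, 1 at late E6.0 and 1 at E6.5), the middle controls 3 embryos (1 at early E7.5, 1 at E7.0 and 1 at late E6.5) and the late controls 4 embryos (2 each of late E7.5 and E7.75). Each of these 3 stages had 1 Mesp1 KO embryo, at E6.5, E7.0 and late E7.5. KO embryos came from crosses between mice heterozygous for a Cre knock-in at Mesp1, and controls from such mice crossed to wild-type or heterozygous mice; the crosses also brought in the Cre-dependent red reporter Ai14 at Rosa26 and the Smarcd3-F6::eGFP transgene at Hipp11. The study marked the early E7.5 control and late E7.5 control 1 as lacking Ai14. Embryos were dissected, and de-yolked when yolk was present, before dissociation. How much of the outer membranes each embryo kept is not given in the sources used here, and cannot be told apart from a difference between embryos in the number of these cells.

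Parietal endoderm descends from the primitive endoderm. Its cells leave the epithelial layer, spread over the inner face of the trophectoderm, and secrete Reichert's membrane, the thick basement membrane between embryo and mother that is built mainly of laminin-111 and collagen IV. Laminin-111 is a trimer of the Lama1, Lamb1 and Lamc1 chains, and collagen IV here is a trimer of Col4a1 and Col4a2 chains. Both are folded in the endoplasmic reticulum (ER) before export, and collagen chains need hydroxylases and the chaperone Serpinh1 (HSP47). These cells are also known to secrete tissue plasminogen activator (Plat), to carry thrombomodulin (Thbd) on their surface and to make the proteoglycan serglycin (Srgn).

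The start of the collagen IV gene pair is shown because the counts of both chains are compared here. Col4a1 and Col4a2 lie head to head on mouse chromosome 8, Col4a1 on the minus strand from 11312826 and Col4a2 on the plus strand from 11312805 in the RefSeq annotation of GRCm38.p6, so that their annotated first exons overlap by 22 bases. The plus strand at chr8:11312801-11312830 is shown with the shared bases in capitals.
Col4a1-Col4a2 start: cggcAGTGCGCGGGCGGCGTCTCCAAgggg
The UMI counts of this pair are given with the basement membrane genes.

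The libraries held between 432 and 23141 barcodes and a median of 3827 to 34415 UMIs per kept cell, with the late E7.5 Mesp1 KO embryo and E7.75 control 1 the shallowest. Mesp1 itself gave at most 5 UMIs in a KO library and at least 282 in a control library, as the genotype labels imply. Of the kept barcodes, 4809 occurred in more than 1 library. They included 33 of the 266 parietal endoderm barcodes, but no barcode was parietal endoderm in more than 1 library. A doublet score marked 16 parietal endoderm cells. The share of cells to mark was set for each library by its size, so pooled shares are not compared: the early E7.5 control had 11 of 152 members marked, where 5.40% of its cells were, E6.0 control 1 had 1 of 14, where 1.28% were, and the E6.5 KO embryo had 1 of 59, where 1.5% were.

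Cells meeting the rule were found in 13 of 15 embryos, but most came from 2 of them. The early E7.5 control held 152 and the E6.5 Mesp1 KO embryo 59, together 79.3% of all members. Another 3 embryos held at least 10: E6.0 control 1 had 14, and late E7.5 control 2 and E7.75 control 2 had 11 each. The remaining 8 embryos with any held 1 to 7 cells. In 2 of these, late E6.5 control 1 (1 cell) and E7.0 control 1 (2 cells), the markers went against the label: each cell held 10 of 12 visceral endoderm markers and 8 or 9 of 15 parietal endoderm markers, and no cell was left in either embryo under limits of 6 and 2 UMIs or after thinning to 3000 UMIs. In all, 10 members held more visceral than parietal endoderm markers.

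In early controls the share of kept cells was 0.935% in E6.0 control 1, 1.04% in E6.0 control 2, 0.784% in E6.0 control 3, 0.0501% in E6.5 control 1 and 0 of 531 cells in the late E6.0 control, where a limit set at 3 cells is 0.565% and the exact 95% binomial bound 0.692%. The early Mesp1 KO embryo, at E6.5, had 3.48% (exact 95% binomial interval, 2.66 to 4.47%), above all 5 controls of its stage. Intervals and limits of this kind cover counting error only. Among middle controls the share was 0.0469% in the late E6.5 embryo, 0.0358% in the E7.0 embryo and 2.59% (2.20 to 3.03%) in the early E7.5 embryo. The E7.0 KO embryo had 1 cell, a share of 0.0597%. Late controls had 0.0148 to 0.0820%, and the late E7.5 KO embryo had 0 of 12853 cells, for which the limit set at 3 cells is 0.0233% and the exact bound 0.0287%.

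**Figure D1:**
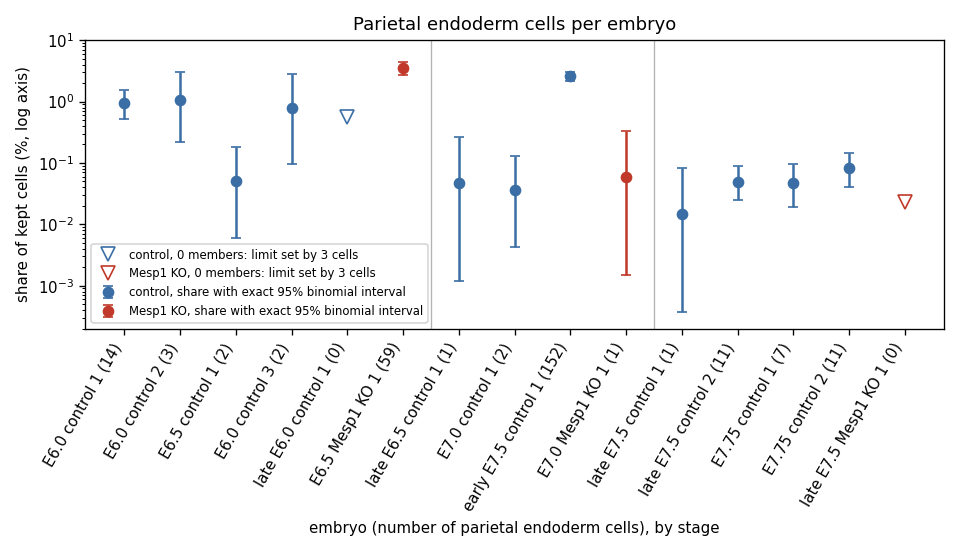
Share of kept cells that were parietal endoderm in each of 15 embryos, on a log axis, with the number of cells beside each name; points carry exact 95% binomial intervals, and open triangles give the limit that 0 cells allow. The E6.5 Mesp1 KO embryo (3.48%) and the early E7.5 control (2.59%) stand above the other 13 embryos, whose shares reach 1.04%.

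Averaged over the 3 stages, the KO share exceeded the control mean by 0.681 percentage points. This was not beyond the spread between embryos (p = 0.45 in an exact permutation of genotypes inside each stage, two-sided, where the 120 arrangements reach 0.00833 at the lowest). The direction rested on 1 embryo: without the E6.5 KO embryo the difference was -0.440. Without the E7.0 KO embryo it was 1.44, and without the late E7.5 KO embryo 1.05. The KO share lay above every control at the early stage, among the controls at the middle stage and below every control at the late stage. By the main rule the last order rested on a single cell of late E7.5 control 1. That embryo had 0 members, as the KO embryo did, when cells were thinned to 3000 UMIs and under limits of 6 and 2 UMIs. The same held without marked doublets, and with the 3 matrix genes at 0.8% of UMIs together. Without the limit on Plat, a rule added after the data were seen, late E7.5 control 1 had 8 members (0.118%). The late KO embryo then had 0 and the other late controls 0.121 to 0.283%. By the main rule the middle order rested on 1 cell of the E7.0 KO embryo, which was marked as a doublet. Without marked doublets that embryo had 0 members and lay below all controls of its stage (0.0377 to 2.54%). Late E6.5 control 1 and E7.0 control 1, which it exceeded by the main rule, held only cells whose markers went against the label. They tied with it at 0 after thinning and under limits of 6 and 2 UMIs. Without the limit on Plat the E7.0 KO embryo had 13 members (0.777%). It again lay among the controls, with 0.143% in E7.0 control 1, 0.282% in late E6.5 control 1 and 3.31% in the early E7.5 control. Within library experiments, experiment 8 held the E6.5 KO embryo with E6.0 control 3 (0.784%) and the late E6.0 control (0 cells), and experiment 5 held the late KO embryo with E7.75 control 1 (0.0470%, 7 cells); the middle KO embryo had no control of its stage in its experiment. Within these experiments the KO share exceeded the control mean by 1.52 percentage points over both stages (exact permutation p = 0.333, two-sided, where the smallest p of 6 arrangements is 0.167), a comparison added after the data were seen.

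From early to late controls the mean share fell by 0.514 percentage points, from 0.562 ± 0.499% (SD, n = 5) to 0.0483 ± 0.0275% (SD, n = 4). The groups overlapped and the difference was not significant (two-sided exact permutation test, p = 0.143; the smallest p of the 126 arrangements is 0.00794). Within experiment 7, the only one with both stages, E6.5 control 1 (0.0501%, 2 cells) lay between late E7.5 control 1 (0.0148%, 1 cell) and E7.75 control 2 (0.0820%, 11 cells). This order depended on the rule. E6.5 control 1 lay above both under limits of 6 and 2 UMIs (0.0250% against 0 and 0.0224%). It also did so without the limit on Plat (0.225% against 0.118 and 0.179%). After thinning it had 0 members, as late E7.5 control 1 did, and E7.75 control 2 had 0.0242%. When Plat was dropped from the rule, a choice made after the data were seen, the difference between the late and early means was -0.930 with an exact permutation p of 0.0238.

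Most members had Sparc far above its limit, whereas Plat was near its limit in many. Sparc, the collagen-binding matrix protein that was the most abundant of the 5 transcripts, took a median of 1.61% of a member's UMIs (range, 0.0148 to 3.55%). It was at least 1% in 225 members, between 0.5 and 1% in 17 and below 0.5% in 24. In the early E7.5 control 142 of 152 members and in the E6.5 KO embryo 58 of 59 reached 1%, against 5 of 11 in late E7.5 control 2 and 5 of 11 in E7.75 control 2. Members below 1% had 0.450 to 0.805% in late E7.5 control 2 and 0.0265 to 0.199% in E7.75 control 2. The 24 low cells had a median of 29498.5 UMIs against 20699 in the cells at 1% or more, and 9 of them also met the limits used for visceral endoderm (at least 3 UMIs of each of Ttr, Apoa1 and Rbp4, and at least 1 UMI of both Amn and Cubn). In all, 12 members met both sets of limits and none met those for endothelial cells.

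Members held a median of 3 Plat UMIs and at most 12. Among cells that met the limits on the 3 matrix genes, Plat was missing more often than Srgn. Of 727 cells with at least 3 UMIs of each of Lama1, Sparc and Col4a1, 454 also held Srgn and 330 held Plat. Just inside the Plat limit, 67 members held a single UMI, with a median Sparc share of 1.36%. Just outside it, 188 cells met every other limit but held no Plat UMI, and their Sparc share was 0.119% at the median and 3.14% at most. At the other limits, 9 members held a single Srgn UMI, 10 members held 3 UMIs of Lama1, and 1 held 3 of Col4a1. Of cells that met every other limit, 64 held no Srgn UMI and 27 held 2 UMIs of Lama1. Cells further below the Lama1 limit were not counted. Among all cells outside the rule, 54 gave Sparc at least 1% of their UMIs, 25 of them in the early E7.5 control.

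**Figure D2:**
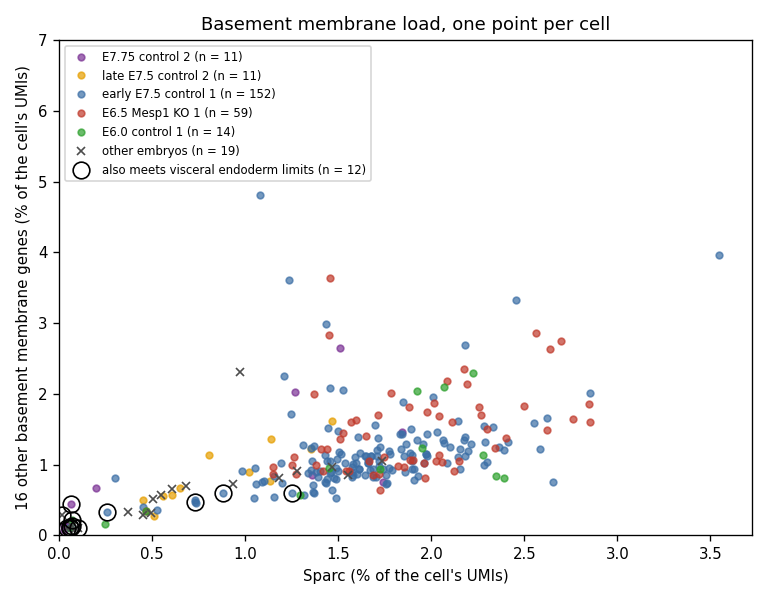
Each point is 1 of the 266 parietal endoderm cells, with Sparc on the x axis and the sum of the 16 basement membrane genes outside the rule on the y axis, both as a percent of the cell's UMIs; circles mark the 12 cells that also meet the visceral endoderm limits. Most cells of the early E7.5 control and the E6.5 Mesp1 KO embryo lie at 1% Sparc or more, and 9 of the 12 circled cells lie below 0.5% Sparc.

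Most markers that the rule did not use were also higher in members, with exceptions. The rule set this contrast, and the marker list was chosen with earlier results of these data known. The list holds Lamb1, Lamc1 and Col4a2, partner chains of rule genes. These levels are therefore a description, not separate support for the label. For levels, UMIs were summed over the parietal endoderm cells of an embryo and divided by all their UMIs (CPM, scaled to a total of 1e+06), in the 5 embryos with at least 10 members. Of 15 further markers listed for the cell type, members with Sparc at 1% or more held a median of 14. Members below 0.5% held 9.5, and visceral endoderm cells of the same 5 embryos a median of 6 to 7. The 15 markers summed to 9083 to 17006 CPM in members and 578 to 921 CPM in visceral endoderm cells. All other cells gave 429 to 802 CPM. Krt19 and Vim did not follow the rest: Krt19 was 0 to 30.3 CPM in members and 23.9 to 41.7 CPM in other cells, and Vim was 132 to 597 CPM in members and 96.2 to 398 CPM in other cells.

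Thrombomodulin, the endothelial and parietal endoderm cofactor that turns thrombin towards protein C, was detected in most members and in few other cells. A Thbd UMI was held by 78.6% of members in E6.0 control 1, 94.9% in the E6.5 KO embryo, 92.1% in the early E7.5 control and 54.5% in each of late E7.5 control 2 and E7.75 control 2. In visceral endoderm cells the share was 0 to 0.469%, at median depths of 17636 to 30834 UMIs against 18129 to 25662 in members. Endothelial cells held it in 7.02% (early E7.5 control), 15.5% (late E7.5 control 2) and 13.8% (E7.75 control 2). Sox7, a primitive endoderm transcription factor also used by endothelium, did not set members apart from endothelial cells (at least 1 UMI of each of Kdr, Cdh5 and Pecam1) in every embryo. It was present in 96.7% of members and 73.7% of endothelial cells in the early E7.5 control, in 100% and 62.8% in late E7.5 control 2, and in 45.5% and 75.2% in E7.75 control 2. In visceral endoderm cells it was present in 18.3 to 30.6%. Sparc was below 0.5% of UMIs in 6 of the 11 members of E7.75 control 2, and their part in its Sox7 share was not tested.

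Markers of visceral endoderm were high in members of some embryos, and those of several other cell types were low, apart from the decidual marker Cryab. The 12 visceral endoderm markers summed to 4735 CPM in members of E6.0 control 1, 115 in the E6.5 KO embryo, 1117 in the early E7.5 control, 981 in late E7.5 control 2 and 3214 in E7.75 control 2, against 21640 to 32421 CPM in visceral endoderm cells, which were themselves chosen on 5 such genes. All other cells, visceral endoderm included, gave 2642, 3926, 4080, 4553 and 2954 CPM in the same order, so that members of E6.0 control 1 and E7.75 control 2 lay above them. The 7 epiblast markers summed to 1006 CPM in E6.0 control 1 and 35.2 to 181 CPM in the other 4. The part of these transcripts in the results for E6.0 control 1 and E7.75 control 2, whose members include 4 and 6 cells with Sparc below 0.5%, was not tested. Macrophage markers reached 0.290 CPM with 4 of 5 at 0 (Ptprc, Tyrobp, C1qa and Lyz2), endothelial markers 17.1 CPM with 2 of 7 at 0, mesoderm markers 77.3 CPM with 1 of 7 at 0, and blood markers 47.9 CPM with 2 of 5 at 0. Among 10 trophoblast markers, which summed to 53.8 to 189 CPM, the giant cell hormones Prl3d1 and Prl2c2 and the spongiotrophoblast gene Tpbpa were at 0, and Rhox6 was at 52.3 to 163 CPM in 4 embryos, where it made up most of the sum, and at 16.8 of 53.8 CPM in E7.75 control 2. The trophoblast sum lay above other cells in late E7.5 control 2 (189 against 163 CPM) and below them in the other 4 embryos. Of 5 trophoblast markers measured at 10 CPM or more, 1 was at least 2-fold higher than other cells in all 5 embryos, where 5.14% of all genes were. Of 4 decidual markers 3 were at 0. Cryab, a small heat shock protein and the 1 so measured, gave 259 to 735 CPM. It was 49.7-fold above other cells and 314-fold above visceral endoderm.

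Outside the 5 genes of the rule, 7523 genes averaged at least 10 CPM over members and other cells, and 387 of them (5.14%) were at least 2-fold higher in members in each of the 5 embryos, with 70 (0.930%) at least 2-fold lower. Against visceral endoderm cells the corresponding shares of 7543 genes were 4.27% higher and 3.51% lower. These counts come from the contrast that the rule used, and the list counts that follow are to be read beside them only as a scale. Against visceral endoderm, 7 of 14 measured basement membrane genes, 12 of 17 of collagen folding, 8 of 12 of coagulation and proteolysis, 4 of 8 of signalling and 1 of 6 of adhesion were at least 2-fold higher in all 5 embryos.

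The 25 leading genes, ranked by the median fold over all other cells among genes of at least 50 CPM, spanned matrix, coagulation and signalling. First came Slc6a2, the noradrenaline transporter, a median of 395-fold above other cells (range 191 to 1051). It was at 17.8 CPM in E6.0 control 1, 193 in the E6.5 KO embryo and 157 in the early E7.5 control. In late E7.5 control 2 it was at 35.2 and in E7.75 control 2 at 74.0 CPM, against at most 0.676 CPM in other cells. Members of E6.0 control 1 and late E7.5 control 2 held 281304 and 227226 UMIs in all, so few Slc6a2 UMIs stand behind these levels. Wfdc1, a secreted protein with a whey acidic protein domain, followed at 118 to 324 CPM (375-fold). Hs3st1, which adds a sulfate to heparan sulfate and so makes its antithrombin binding site, was among the most abundant leaders with 1038, 1620, 1116, 849 and 390.0 CPM in the same order of embryos (203-fold, range 138 to 302). All 5 embryos were above other cells for each of the 25 genes, as the ranking demanded.

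Several leaders encode secreted antagonists or receptors. Nog, an extracellular antagonist of BMP ligands, was at 232 to 558 CPM, a median of 75.2-fold above other cells. Ptger3, a prostaglandin E2 receptor, was at 40.3 to 85.3 CPM and the adenosine receptor Adora1 at 53.8 to 104 CPM. Epas1, the hypoxia-inducible factor HIF2A, was at 108 to 431 CPM (107-fold). Serping1, the C1 inhibitor, was at 87.4 to 345 CPM (57.6-fold). When visceral endoderm cells stood in for all other cells, 17 of the 25 genes stayed among the first 25.

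**Figure D3:**
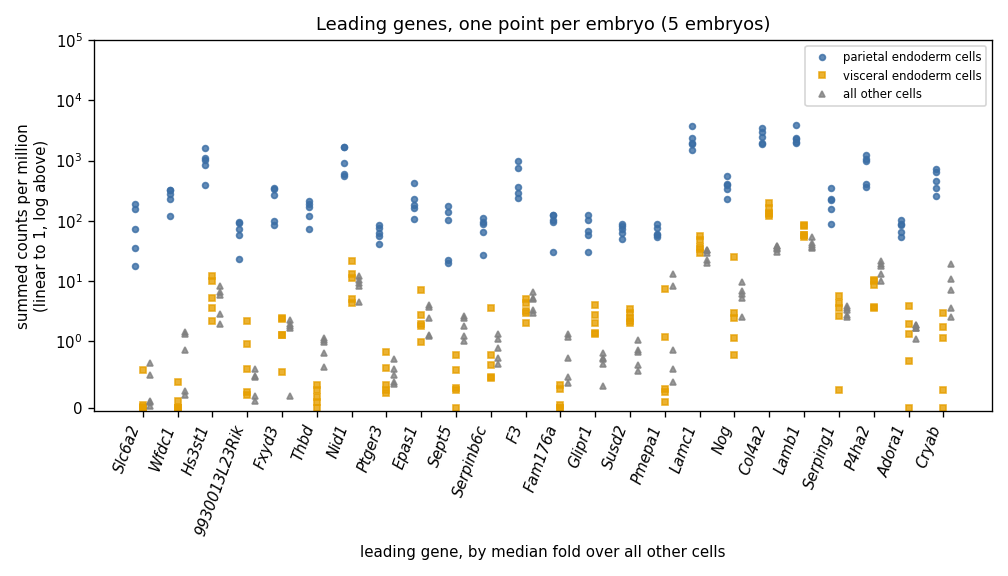
Summed CPM of the leading genes named by the ranking, but for a gene not reported here, in parietal endoderm cells (circles), visceral endoderm cells (squares) and all other cells (triangles), 1 point for each of 5 embryos, on an axis that is linear up to 1 and logarithmic above. Members lie above both other classes for each gene shown in each embryo, and their own spread is widest for Slc6a2 (17.8 to 193) and Sept5 (20.2 to 178).

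The basement membrane genes took a larger share of UMIs in members than in other cells. Of 16 such genes outside the rule 13 were measured at 10 CPM or more, and 8 of these were at least 2-fold higher in all 5 embryos and none lower, against 5.14% of all genes, with a median fold of 6.92 over the 13 where the median of all genes was 0.921. With the 3 matrix genes of the rule, the list took 2.93% of UMIs in E6.0 control 1, 4.36% in the E6.5 KO embryo, 3.46% in the early E7.5 control, 2.27% in late E7.5 control 2 and 1.94% in E7.75 control 2. Without them it took 0.859, 1.40, 1.05, 0.80 and 0.728%, where visceral endoderm cells had 0.0677 to 0.116% and all other cells 0.0397 to 0.0451%.

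The laminin chains that pair with Lama1 were the clearest. Lamb1 was at 2062, 3854, 2393, 2293 and 1923 CPM, in the order of embryos above, and 35.4 to 54.4 CPM in other cells (58.2-fold). Lamc1 was at 1977, 3722, 2392, 1866 and 1469 CPM, 84.6-fold above other cells. Both were highest in the E6.5 KO embryo, and every member value lay above those of the other classes. Lamb1 gave 1.0 to 1.31 UMIs per Lamc1 UMI in members and 1.46 to 1.98 in visceral endoderm cells, ranges that did not overlap, whereas all other cells (1.29 to 1.76) overlapped both. Lama1, a gene of the rule, gave 1.03 to 1.54 UMIs per Lamc1 UMI in members and 0.463 to 0.838 in visceral endoderm.

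Nid1, the nidogen that bridges laminin and collagen IV networks, was at 924, 1679, 1672, 550.1 and 605 CPM, 133-fold above other cells. Its relative Nid2 was at only 37.7 to 138 CPM, below visceral endoderm cells (78.2 to 154 CPM) at the median with a fold of 0.538. Hspg2, the core protein of perlecan, was 7.31-fold above other cells, Tinagl1, a laminin-binding matrix protein, 33.9-fold, and the peroxidase Pxdn, which crosslinks collagen IV, 6.43-fold.

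Several other matrix genes varied between embryos. Lama5, the alpha chain of laminin-511, was at 1.66 CPM in the E6.5 KO embryo and 1.16 CPM in the early E7.5 control, the 2 embryos with the most members, against 12.9 to 30.7 CPM in other cells and 23.5 to 85.2 CPM in visceral endoderm. Agrin (Agrn) and Col18a1 were at 2.49 and 3.32 CPM in the KO embryo and 10.4 and 7.54 CPM in the early E7.5 control, also under the levels of visceral endoderm (59.6 to 104 and 35.6 to 88.5 CPM). Elsewhere they were not low throughout. Agrn was above the other cells of the same embryo in E6.0 control 1 (28.4 against 20.9 CPM), late E7.5 control 2 (30.8 against 19.8) and E7.75 control 2 (90.8 against 26.2). Lama5 was so in late E7.5 control 2 (22 against 14.5) and E7.75 control 2 (23.5 against 15.2), and at 14.2 against 30.7 CPM in E6.0 control 1. Col18a1 was at 32.0, 0 and 148 CPM in these 3 embryos, against 39.9, 49.4 and 54.4 CPM. These levels rest in part on few UMIs. E6.0 control 1 gave 8 UMIs of Agrn, 4 of Lama5 and 9 of Col18a1. The exact 95% Poisson interval for Agrn there, 12.3 to 56.0 CPM, includes the 20.9 CPM of other cells. In late E7.5 control 2 all members together held 227226 UMIs. Members of E6.0 control 1 and E7.75 control 2 included 4 and 6 cells with Sparc below 0.5%. The part of these cells in the levels was not tested. None of 10 further laminin and collagen IV chains reached the limit of 10 CPM over members and other cells. Lama4 was the highest of them in members with 3.36 to 18.3 CPM, and Col4a3 and Col4a4 were at 0.

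Col4a1 and Col4a2, whose annotated starts share the 22 bases shown above, were counted in a narrow proportion. Col4a2 was at 2485, 3481, 2963, 1875 and 1980.4 CPM, 74.3-fold above other cells and 14.7-fold above visceral endoderm. In members each Col4a2 UMI came with 1.88 to 1.98 Col4a1 UMIs in the 5 embryos, from 31537 and 16122 UMIs in all. In visceral endoderm cells, at far lower levels, the ratio was 1.77 to 2.26. In all other cells it was 1.89 to 2.21, so the ratio did not set members apart. A 5′ kit counts molecules and not fragments, so no scaling by length was applied, but capture may still differ between transcripts. Over cells, the shares of UMIs of both chains ranked together (Spearman's rho 0.814 over 152 cells of the early E7.5 control and 0.866 over 59 of the KO embryo). For Col4a2 and Lamc1 rho was 0.544 and 0.619 in these embryos, but in E7.75 control 2, with 11 cells, it was 0.955 against 0.90 for the collagen pair. These points share a library and, through the total of the cell, a denominator, and are given as a description.

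Most genes for collagen folding and export were also higher in members. Of 17 measured, 13 were at least 2-fold higher in all 5 embryos, where 5.14% of all genes were, and none lower. The median fold was 9.41. The list took 1.97, 2.79, 2.35, 1.15 and 1.01% of the members' UMIs and 0.185 to 0.211% of those of other cells. Serpinh1, the collagen-specific chaperone, was at 10025, 15988, 13437, 5237 and 4795 CPM, against 236 to 534 CPM in other cells and 269 to 419 CPM in visceral endoderm (30.5-fold and 24.1-fold). Its level in endothelial cells pooled over these embryos was 1016 CPM, still below every member value. Over cells, Serpinh1 ranked with Col4a2 less closely than Col4a1 did. Spearman's rho was 0.308 over 152 cells of the early E7.5 control and 0.335 over 59 of the KO embryo. In the embryos with 11 to 14 members it was 0.473 to 0.718.

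The hydroxylases were also higher in members, by unequal folds. P4ha2, a catalytic subunit of prolyl 4-hydroxylase, was 52.8-fold above other cells and P4ha1, its sister subunit, 9.41-fold. P4hb, the shared protein disulfide isomerase subunit, was already abundant elsewhere and was 5.14-fold higher (1503 to 3356 CPM against 481 to 653). The lysyl hydroxylases Plod2, Plod3 and Plod1 were 23.0-fold, 17.9-fold and 11.1-fold higher. Mia3 (TANGO1), the receptor that loads bulky collagen into transport carriers, differed less, at 71.1 to 120.4 CPM against 42.9 to 52.8 CPM in other cells (1.91-fold).

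The general secretory machinery was higher by smaller folds than the collagen enzymes. Of 31 genes of ER translocation and chaperones 8 were at least 2-fold higher in all 5 embryos, where 5.14% of all genes were, and none lower. The median fold was 2.44. Against visceral endoderm cells 1 of 31 was higher, where 4.27% of all genes were, and the median fold was 1.61. The list took 2.45, 2.63, 2.23, 1.86 and 1.65% of UMIs in members, 1.16 to 1.27% in visceral endoderm and 0.794 to 0.914% in other cells. Hsp90b1 (GRP94) was at 2202 to 4367 CPM (3.02-fold), Calr (calreticulin) at 1162 to 2084 CPM (3.51-fold) and Xbp1, a transcription factor of secretory cells, at 194 to 359 CPM (4.24-fold). Hspa5 (BiP), the main ER chaperone, was 2.0-fold higher at the median but did not reach 2-fold in every embryo (1.69 to 3.86).

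Among 12 genes of transport between ER and Golgi, 8 were at least 2-fold higher in all 5 embryos, where 5.14% of all genes were, with a median fold of 3.34. Against visceral endoderm 3 of 12 were higher and the median fold was 1.84. The most distinct was Kdelr3, a receptor that returns KDEL-tagged chaperones to the ER, at 921, 1000.3, 884, 638 and 410.2 CPM against 10.7 to 33.4 CPM in other cells (26.5-fold) and 59.6 to 184 CPM in visceral endoderm. Its relative Kdelr2 was 4.61-fold and Sec24d, a COPII coat subunit, 12.5-fold above other cells. For each of the 4 lists, the load was lowest in members of E7.75 control 2 and next lowest in late E7.5 control 2. In both embryos 6 of the 11 members had Sparc below 1%, but these cells were not alike. In late E7.5 control 2 they had 0.450 to 0.805% Sparc and 11 to 15 of 15 parietal endoderm markers. In E7.75 control 2 they had 0.0265 to 0.199% Sparc and 8 to 13 of these markers. The part of these cells in the lower loads was not tested.

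**Figure D4:**
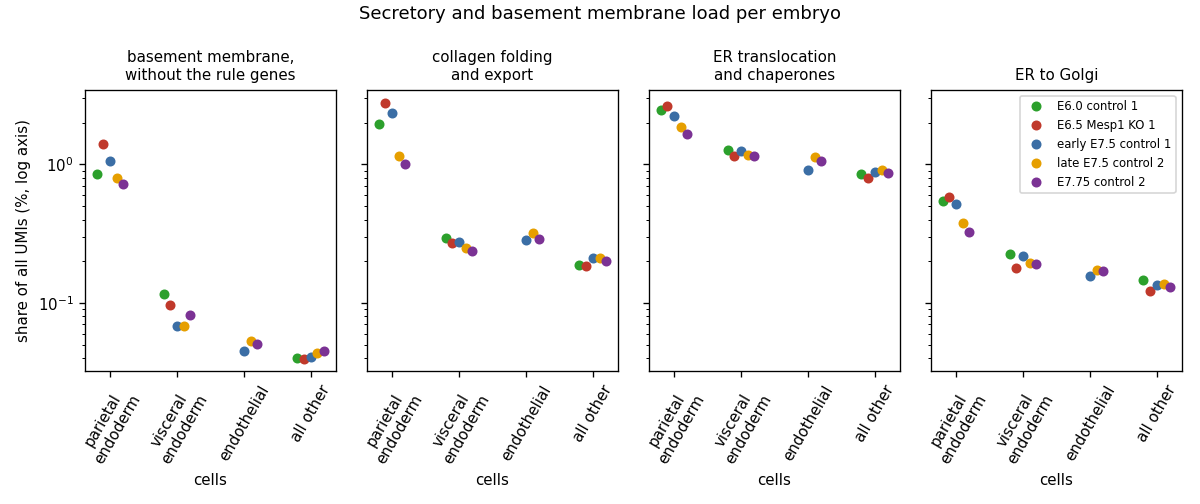
Share of UMIs taken by 4 gene lists in parietal endoderm, visceral endoderm, endothelial and all other cells of 5 embryos, on log axes; endothelial cells are shown where an embryo held at least 10. Parietal endoderm leads in each panel, by the most for basement membrane genes (0.728 to 1.40% against 0.0397 to 0.0451% in other cells) and by less for ER genes (1.65 to 2.63% against 0.794 to 0.914%).

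The number of genes detected in members was close to that in other cells at equal depth. At an equal 3000 UMIs per cell, members had a median of 1501, 1402, 1454, 1404 and 1494 genes in the 5 embryos and all other cells 1504, 1415, 1466, 1396 and 1453. Visceral endoderm cells had 1433 to 1574 genes. The thinning left out 1 member, of the early E7.5 control, and in every embryo the interquartile range of members overlapped that of other cells. Without thinning, members had a median of 4241.5, 4161, 4595.5, 4219 and 5429 genes and other cells 4837, 5253, 4555, 3564.5 and 4433.

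Genes of coagulation and pericellular proteolysis stood apart on the activating and on the inhibiting side. Of 13 measured outside the rule, 7 were at least 2-fold higher in all 5 embryos, where 5.14% of all genes were, and none lower. F3 (tissue factor), the initiator of coagulation, was at 238, 994, 367, 753 and 286 CPM against 2.92 to 6.49 CPM in other cells (98.0-fold). Thbd was at 167, 210.0, 188, 119 and 74.0 CPM, 146-fold above other cells, and Procr, the receptor that presents protein C, at 13.2 to 110.4 CPM (26.1-fold). Plat was a gene of the rule, while its counterpart urokinase (Plau) was at 0 in members of all 5 embryos. Anxa2, a surface receptor for plasminogen and tissue plasminogen activator, was 8.12-fold and the metalloproteinase inhibitor Timp1 17.9-fold higher.

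Primitive endoderm transcription factors were high in members, with 5 of 7 measured at least 2-fold higher than other cells in all 5 embryos, where 5.14% of all genes were. Against visceral endoderm 3 of 8 were higher and 1 was lower. Gata6 was at 256, 637, 558, 194 and 457 CPM (11.7-fold), Gata4 at 121 to 354 CPM (6.59-fold), Sox17 at 259 to 585 CPM (8.85-fold) and Sox7 at 97.5 to 219.6 CPM (29.2-fold). Hnf4a, the regulator of visceral endoderm, was at 0 to 17.8 CPM in members and 83.3 to 109 CPM in visceral endoderm. Snai1, which represses E-cadherin and marks cells leaving an epithelium, was at 295 to 909 CPM in members, 5.32 to 14.02 CPM in visceral endoderm and 39.1 to 118 CPM in other cells.

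The signalling genes included a receptor known from parietal endoderm differentiation. Pth1r, which binds parathyroid hormone-related protein, was at 494, 553, 1798, 348 and 716 CPM, against 62.3 to 103 CPM in visceral endoderm and 14.5 to 37.8 CPM in other cells (33.5-fold). Fst (follistatin), which binds activin, was at 639.9, 922, 3252, 295 and 1342 CPM (18.6-fold). Pdgfra was at 142 to 210.0 CPM (12.6-fold) and Stra6, the receptor for retinol-binding protein, at 101 to 181 CPM (30.3-fold). Fgfr1 and Bmp4 were at least 2-fold lower in all 5 embryos, Fgfr1 at 2.49 to 43.7 CPM against 28.8 to 93.8 and Bmp4 at 0 to 6.72 CPM against 31.4 to 55.6. The list of 8 measured genes thus held 4 higher and 2 lower, where 5.14% of all genes were higher and 0.930% lower.

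In adhesion, Itga6, the alpha chain of a laminin receptor, was at 61.6 to 258 CPM (13.0-fold) and Itgb1, its partner, at 139 to 256 CPM (1.97-fold). Of 6 measured adhesion genes 3 were at least 2-fold higher in all embryos, where 5.14% of all genes were. Endocytosis and lysosome genes lay, at the median, between other cells and visceral endoderm. None of 11 was at least 2-fold above or below other cells in all embryos, with a median fold of 2.11, and the median fold against visceral endoderm was 0.406. The 5 genes at least 2-fold below visceral endoderm in all 5 embryos were Cubn and Amn, on which those cells were chosen, the endocytic adaptor Dab2 (101 to 326 against 832 to 1317 CPM) and the lysosomal proteases Ctsb (219 to 601 against 1162 to 1527 CPM) and Lgmn (205 to 466 against 842 to 1156 CPM). Psap, the precursor of the saposins, was at least 2-fold above visceral endoderm in all 5 embryos (151 to 325 against 48.3 to 73.9 CPM). Of all genes, 3.51% were at least 2-fold below visceral endoderm in all 5 embryos and 4.27% above. Proliferation genes were near the level of other cells, with 0 of 7 called in either direction and a median fold of 0.790, for example Top2a at 199 to 417 against 249 to 367 CPM. Among keratins and vimentin, 0 of 5 were called, and Krt8 was at 673 to 962 CPM (2.18-fold).

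Between embryos some genes of the members differed by 2-fold or more, and the lists are given beside the shares of all genes. No test was made, since only 1 KO embryo held at least 10 members, and the embryos compared differ in age, genotype and experiment, which cannot be told apart. Members of the early E7.5 control (experiment 7) had 6.33% of 2905 genes at least 2-fold above, and 1.07% at least 2-fold below, members of the E6.5 KO embryo (experiment 8). None of 9 basement membrane genes was at least 2-fold higher and 1 was lower, Hspg2 with 94.6 against 217 CPM. Among 16 collagen folding genes 1 was lower, Fkbp10 with 45.8 against 99.6 CPM, and among 12 ER to Golgi genes 0 differed. Members of the KO embryo against those of E6.0 control 1 had 6.96% of 3062 genes at least 2-fold higher and 8.75% lower, with 0 of 9 basement membrane genes in either direction. For the early E7.5 control against E6.0 control 1 the shares of 3149 genes were 9.40% and 6.45%, with 0 of 8. Lists of 8 to 16 genes are too short for such counts to be set apart from the shares of all genes.

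Pth1r and Fst were the 2 of 5 signalling genes that were higher in the early E7.5 control, at 3.25 and 3.53 times the KO embryo. In the other cells of the same embryos these genes differed by 2.29 and 2.82 times in the same direction. Against E6.0 control 1 Pth1r was 3.64 times and Fst 5.08 times higher, with 2.61 and 1.34 times in other cells. F3 was the opposite, with 994 CPM in the KO embryo against 367 in the early E7.5 control and 238 in E6.0 control 1, while other cells stayed between 4.99 and 6.49 CPM in these 3 embryos. Gata6 in E6.0 control 1 (256 CPM) lay below the KO embryo (637 CPM), as it did in other cells (21.9 and 67.2 CPM).

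Some differences were also seen in the other cells of the same libraries. Lamp1, a lysosomal membrane protein, was 4.34 times higher in members of the early E7.5 control than in the KO embryo and 6.65 times higher in other cells. Fos, an immediate early gene, was at 570.3 CPM in members of the early E7.5 control and 76.4 CPM in the KO embryo, and at 243 and 5.85 CPM in other cells. Sec61g, a translocon subunit, was at 3.55 CPM in members and 1.89 CPM in other cells of E6.0 control 1, against 253 and 136 CPM in the early E7.5 control. The endocytic genes Amn (462 against 38.2 CPM) and Cubn (188 against 31.5 CPM) were higher in E6.0 control 1 than in the KO embryo beside the visceral endoderm sums given above (4735 against 115 CPM), and the part of those transcripts was not tested.

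**Figure D5:**
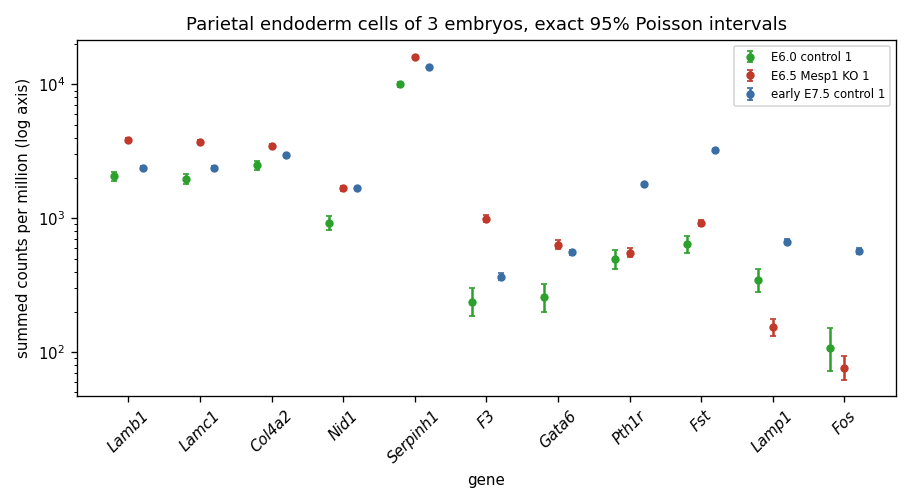
Summed CPM of 11 genes in the parietal endoderm cells of E6.0 control 1 (14 cells), the E6.5 Mesp1 KO embryo (59) and the early E7.5 control (152), on a log axis with exact 95% Poisson intervals that cover counting error only. F3 is highest in the KO embryo (994), and Pth1r (1798), Fst (3252), Lamp1 and Fos are highest in the early E7.5 control.

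Reporter reads were found in some parietal endoderm cells. At least 1 Ai14 UMI was held by 5 of 14 members of E6.0 control 1, 17 of 59 in the E6.5 KO embryo, 37 of 152 in the early E7.5 control, 0 of 11 in late E7.5 control 2 and 3 of 11 in E7.75 control 2. In all other cells the share was 21.5, 25.8, 2.12, 20 and 24.2% in the same order of embryos, and in visceral endoderm cells 0.427 to 6.41%. Which part of the reporter the added Ai14 sequence covers is not given in the sources used here. At least 1 eGFP UMI was held by 7.14 to 18.2% of members and by 5.61 to 14.2% of all other cells.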

How the data were processed

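The deposited files were Cell Ranger 3.0.2 matrices on mm10 with added reporter sequences; their values are UMI counts made by the authors per gene and barcode, not normalized, and no depth normalization by the authors is in them. Barcodes with under 10% mitochondrial UMIs, under 50000 UMIs and 200 to 7000 genes were kept (93701 of 99474). Members, comparison cells and gene lists were chosen with earlier results of these data known. Named genes were those of fixed lists and the 25 leading genes (at least 50 CPM, higher in every embryo with at least 10 members, rule genes apart). Genes were matched by Ensembl identifier, or by the files' symbol where the name table had none. Folds are ratios of summed CPM within an embryo, with the comparison cells set to at least 3 counts, and are medians over 5 embryos. Shares were compared by exact permutation with embryos as replicates; p-values measure the spread between embryos. The planned gene tests on summed counts required at least 2 KO embryos with 10 members, so these comparisons, late against early included, were not made. Doublets were scored with Scrublet in scanpy 1.11.5, marking the top 0.8% per 1000 barcodes. Cells were thinned to 3000 UMIs where stated. Scripts ran in Python 3.11.15 with NumPy 2.4.6 and SciPy 1.17.1, and fold calls were tested on simulated data. Alternatives were stricter limits (6 and 2 UMIs), at most 6300 genes, thinning, doublets left out, experiment 5 left out, and each embryo left out; rules without Plat, with the 3 matrix genes at 0.8% of UMIs together, and without cells in the visceral endoderm limits, and the KO comparison within experiments, were added after the data were seen. One leading gene and a gene of the coagulation list were counted with their lists but are not reported here.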

Additional observations from a re-analysis of the deposited data

Results flagged for a closer look

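The early E7.5 control, which the study marked as lacking the Ai14 reporter, held Ai14 UMIs in its parietal endoderm cells. At least 1 such UMI was found in 37 of 152 members (24.3%, exact 95% binomial interval 17.8 to 32.0%, counting error only), 54 UMIs in all, and 12 members held more than 1. In the same library 121 of 5709 other cells (2.12%, 1.76 to 2.53%) and 3 of 702 visceral endoderm cells (0.427%) held an Ai14 UMI, at similar median depths (22046.5 UMIs in members and 21962 in other cells). The other embryo marked as lacking Ai14, late E7.5 control 1, had an Ai14 UMI in 2.44% of cells outside the parietal endoderm, and its single member had none. In E6.0 control 1 and the E6.5 KO embryo, not marked as lacking it, 5 of 14 and 17 of 59 members held Ai14, against 21.5 and 25.8% of their other cells. Which part of the reporter the added Ai14 sequence covers is not given in the sources used here, so an Ai14 UMI need not stand for a recombined reporter, and the source of these UMIs was not tested.

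The difference in share between Mesp1 KO and control embryos pointed in opposite directions at the early and the late stage. The KO embryo exceeded the control mean by 2.92 percentage points at the early stage, above all 5 controls, and differed from it by -0.0483 at the late stage, below all 4 controls. At the middle stage the difference was larger than at the late stage, at -0.832. There the KO embryo lay among the controls, of which the early E7.5 control had 2.59%. Each stage rests on 1 KO embryo, and the difference between stages was not tested. By the main rule the order at the late stage rests on 1 cell. Late E7.5 control 1, with a share of 0.0148%, had 0 members after thinning to 3000 UMIs and under limits of 6 and 2 UMIs. It also had 0 without marked doublets, and with the 3 matrix genes at 0.8% of UMIs together. E7.75 control 1 had 0 under limits of 6 and 2 UMIs. Without the limit on Plat, late E7.5 control 1 had 8 members (0.118%) and the KO embryo 0, below all 4 late controls. The late KO library had a median of 3827 UMIs per kept cell. E7.75 control 1, of the same experiment and another age, had a median of 3926 and held 7 members. With the 3 matrix genes at 0.8% of UMIs together in place of the limits on UMIs, the KO embryo had 0 members and that control 23. The part of depth, age or retained membranes in these counts was not tested.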

How the results depend on the processing

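The KO minus control share stayed above 0 in 8 of 8 alternatives (exact permutation p, 0.167 to 0.517). None passed a p of 0.05, but 1 of them, within experiments, could not, as the smallest p of its 6 arrangements is 0.167. Leaving out each embryo in turn gave -0.440 to 1.44 percentage points, negative only without the E6.5 KO embryo. The late minus early difference stayed negative throughout. It passed a p of 0.05 in 1 of 7 alternatives, the rule without Plat (-0.930, exact permutation p = 0.0238; range over the alternatives 0.0238 to 0.254), and leaving out each embryo gave -0.655 to -0.394. Of the 25 leading genes, 17 stayed with visceral endoderm as comparison, and 22 did without marked doublets and 22 without members inside the visceral endoderm limits. The median basement membrane load, 2.93% of UMIs, was 4.08% in cells thinned to 3000 UMIs, where the rule keeps fewer cells (26 of 59 in the E6.5 KO embryo), and 0.859% without the genes of the rule. Depth limits each share, since a member must hold a Plat UMI. No paired analysis was possible because replicate numbers in the labels only count embryos within a group and each KO group has 1 embryo. Pairing by experiment, possible for 2 of the 3 KO embryos, is given with the shares. The planned gene tests between embryos and their alternatives were not run, since they required 2 KO embryos and only 1 held at least 10 members.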
